A study of Mus musculus with 18 samples.

Results

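Ribosome footprints were set against RNA, gene by gene, in wild-type mouse epidermis. The comparison used 6 of the 18 libraries of the series, the 3 footprint libraries and the 3 RNA libraries titled WT shScram. The embryos had been injected in utero at embryonic day 9.5 (E9.5) with a scrambled control shRNA, and their epidermis was taken at E18.5. All 6 libraries are labelled with the tm4(ACTB-tdTomato,-EGFP)Luo/J allele of Gt(ROSA)26Sor, a fluorescent reporter, as their strain, and with epidermal basal cells as their source. Footprint replicate 1 has the genotype label Rosa26 where the other 5 read WT, and it was kept in the group that its title gives. Cycloheximide, which arrests elongating ribosomes, was present while dispase freed the epidermis from the dermis and trypsin dispersed the cells. No label says whether the 3 libraries of a kind came from separate embryos, so a p-value here speaks of library-to-library spread, which may be technical. The HrasG12V shScram and HrasG12V shEif2b5 libraries (strain FR-HrasG12V, E18.5, same injection day, 3 of each kind) enter only the last comparison, where strain and genotype cannot be told apart.

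Ribosome profiling sequences the stretches of mRNA that ribosomes shield from nuclease, so the number of footprints on a coding sequence follows both the amount of its mRNA and how densely ribosomes occupy it. Short reading frames upstream of the main start codon, iron-responsive hairpins in the leader and the 5′ terminal oligopyrimidine (TOP) motif of ribosomal protein mRNAs are classic elements that lower or gate ribosome loading. In skin, the basal layer holds the dividing keratinocytes, which carry keratins 5 and 14, p63 and the hemidesmosomal integrins, and the spinous and granular layers above it differentiate.

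Coding-sequence counts summed to 3319175, 4294388 and 3853760 in the footprint libraries and to 2523896, 2707252 and 5505386 in the RNA libraries. Replicates of a kind correlated at r = 0.973 to 0.981 across genes on the log2 scale, and footprint with RNA libraries at 0.747 to 0.808. The labelled cell type was checked against markers. Krt5, Krt14, Krt15, Trp63 and Itga6 were all present, but per kilobase of coding sequence the spinous keratins exceeded the basal ones. Krt1 stood at a mean of 9951 footprint CPM (reads per gene scaled to a common library size) per kb and 22468 RNA CPM per kb, and Krt10 at 4900 and 20372. For Krt5 these levels were 3736 and 4299, and for Krt14 640 and 1781. The most abundant keratins were thus those of suprabasal cells, against the label, and in bulk samples fewer cells of a type and less RNA per cell cannot be told apart. Of the markers of other tissues, 0 of 7 endothelial, 1 of 8 erythroid and 4 of 7 skeletal muscle genes had enough counts to be tested, and 5 of the 8 erythroid genes had no count in any of the 6 libraries. Markers of other skin cells were present, however. Enough counts were found for 11 of 12 fibroblast, 11 of 11 melanocyte, 6 of 13 immune and 6 of 7 Merkel cell genes. Fibroblast genes summed to 2818 to 4447 footprint CPM and melanocyte genes to 1438 to 1702.

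Of the 11278 genes tested, 3869 (34.3%) had more footprints than their RNA predicted and 4023 (35.7%) had fewer, at an adjusted p under 0.05. A gene was called in this sense. Its log2 ratio of footprint CPM to RNA CPM is relative to the typical gene, because the libraries of both kinds were scaled to each other. Footprints exceeded RNA by more than 2-fold among the called genes in 2224 cases (19.7%) and fell short by more than 2-fold in 2566 (22.8%). The median log2 ratio was -0.01, the middle 50% of genes lay between -0.91 and 0.81, and 5% lay below -2.30 and 5% above 1.87. The footprint and RNA libraries did not overlap at all for 8224 genes (72.9%). With so many genes called, a list is described below by its counts and its median beside these background values. The called genes nearest the 2-fold line had absolute log2 ratios of 1 to 1.0006 just inside it and 0.99903 to 0.99978 just outside.

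**Figure D1:**
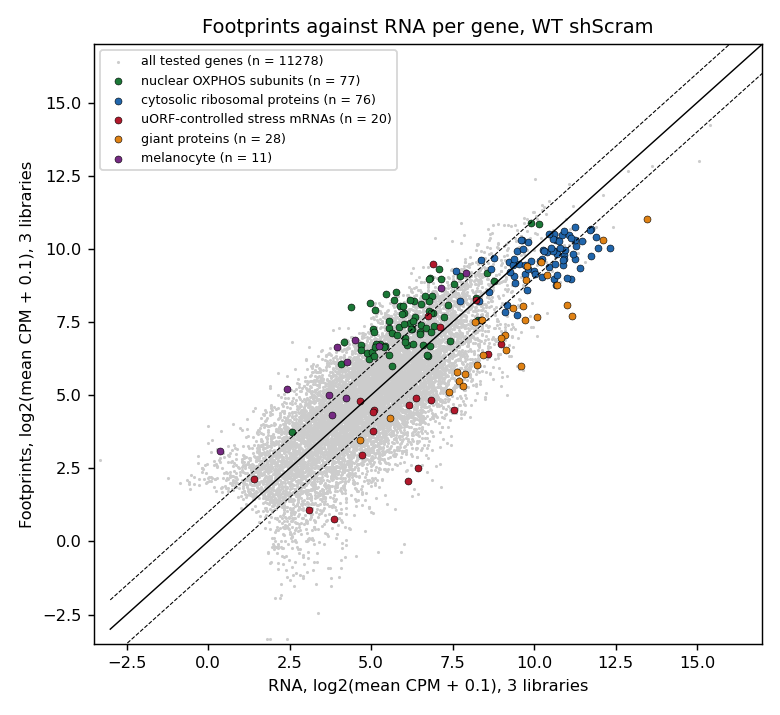
Each grey point is 1 of 11278 tested genes, placed by the mean CPM of the 3 RNA libraries (horizontal, log2) and of the 3 footprint libraries (vertical, log2); the solid line marks equality and the dashed lines 2-fold, and coloured points are members of 5 gene lists. The 77 nuclear OXPHOS subunits lie mostly above the line, and the 28 giant proteins all lie below it.

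The genes with the most footprints for their RNA had short coding sequences. Both ends are described by the 12 called genes with the most extreme ratios among those with at least 10 CPM in the higher kind and 1 CPM in the lower and no overlap between the kinds. Pseudogenes, histones, date-like names and predicted gene models (Gm and Rik symbols) were left out, and 1 Rik model had a higher ratio than any gene named here. Ndufa4, a small subunit associated with cytochrome c oxidase, had 349, 266 and 155 footprint CPM against 18.1, 23.8 and 19.9 RNA CPM, a 12.5-fold excess (log2 3.64, SE 0.30, adjusted p = 1.62e-06). Its footprint libraries differed from each other but all lay far above the RNA libraries. Mcts1, which helps ribosomes recycle and reinitiate, had 102, 82.8 and 117 against 6.58, 9.53 and 9.20 CPM (11.7-fold, adjusted p = 1.65e-10). The other genes among these 12 highest were BC031181, Sf3b6 (a splicing factor subunit), Prdx1 (a peroxiredoxin), Gtf2a2 (a TFIIA subunit), Muc15 (a membrane mucin), Cd59a (a complement inhibitor), Cks2 (a CDK-binding protein), Mpc1 (the mitochondrial pyruvate carrier), Ubl5 and Uqcrb (a complex III subunit), with excesses of 9.01-fold to 12.5-fold. All 12 had coding sequences of 216 to 993 bases. Between 73% and 100% of the coding 28-mers of Prdx1, Cks2, Mpc1 and Uqcrb also occur in transcripts of other genes, so their ratios are uncertain.

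At the other end coding sequences were mostly longer and more GC-rich. Of the 12 lowest, 11 had a coding GC content of 51.4% to 69%, above that of every gene of the upper 12 (36.1% to 50.8%), and 10 had coding sequences of 1086 to 5535 bases. The exceptions were BC005537, with 687 bases at 44.8% GC, and by length Wbp1, with 912 bases. Wtip, a LIM-domain protein of cell junctions, had 2.28, 2.71 and 3.82 footprint CPM against 88.9, 83.8 and 87.6 RNA CPM, a 29.1-fold deficit (log2 -4.86, SE 0.21, adjusted p = 2.25e-11). Ppp1r16a, a regulatory subunit of protein phosphatase 1, had 1.99, 2.71 and 3.82 against 81.5, 66.7 and 80.2 CPM (26.4-fold lower, adjusted p = 3.4e-11). The footprint counts behind such values are low, while the RNA levels were steady across libraries. Hr, the hairless corepressor needed for hair cycling, was the most abundant of the 12 in RNA, with 28.7, 37.3 and 30.8 footprint CPM against 595, 601 and 534 RNA CPM (17.8-fold lower, adjusted p = 1.79e-11). BC005537, Mesdc1, Gas2l1 (a cytoskeletal linker), Gpr153 (an orphan receptor), Mllt6, Col27a1 (a fibrillar collagen), Egln2 (a HIF prolyl hydroxylase) and Wbp1 had deficits of 19.4-fold to 27.1-fold. The lowest of the 12, Rsc1a1 (39.7-fold), is uncertain, since 100% of its coding sequence lies under exons of Ddi2. The first 60 coding bases of 2 genes from the upper end and 1 from the lower, printed from the GENCODE vM21 transcripts of mm10, are given as examples of the composition, with every G or C at the third position of a codon in capitals:

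Ndufa4 (chr6:11906091-11907365, minus strand, across an intron): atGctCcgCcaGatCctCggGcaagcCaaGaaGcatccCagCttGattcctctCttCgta

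Mcts1 (chrX:38600768-38601977, plus strand, across an intron): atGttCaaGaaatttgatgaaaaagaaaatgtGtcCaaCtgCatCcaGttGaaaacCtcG

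Wtip (chr7:34133000-34133059, minus strand): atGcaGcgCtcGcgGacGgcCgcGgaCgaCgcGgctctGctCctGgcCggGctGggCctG

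Of the 20 codons in each window, 15 end in G or C in Ndufa4 and 12 in Mcts1, against 19 in Wtip. The count does not separate the ends gene by gene, since it is 10 in Sf3b6 of the upper end and also 10 in BC005537 of the lower. The 10 genes with the highest mean footprint CPM, which is not corrected for length, were Krt1, Krt10, Eef1a1, Krt5, Stfa3, Actb, Lgals7, Hspa8, Ppia and Hsp90ab1. Stfa3, a cystatin-family protease inhibitor, had 5690, 5196 and 5063 footprint CPM against 1049, 1145 and 961 RNA CPM (5.06-fold higher, adjusted p = 2.29e-09), a ratio that shrank to a log2 of 0.33 with the GC and length terms described next (adjusted p = 0.0939). Lgals7, the keratinocyte galectin, was not called (3689 ± 424 against 4466 ± 60.3 CPM, SD, n = 3, adjusted p = 0.149).

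Coding GC content and coding length accounted for 47% of the variance of the log2 ratio across 11228 genes in a linear fit. The ratio correlated with GC at rho = -0.52 and with length at -0.40 (Spearman, across genes, which are not independent replicates). In the decile of genes lowest in GC (34.4% to 44.5%) the median log2 ratio was 0.86, and in the highest (60.6% to 77.9%) it was -1.32. From the shortest decile (75 to 540 bases) to the longest (3543 to 100401 bases) the median went from 0.78 to -1.03. The slopes differed between the 2 kinds of library. Levels per kb correlated with GC at -0.13 to -0.20 in the footprint libraries and at 0.12 to 0.17 in the RNA libraries, and CPM correlated with length at -0.02 to 0.01 and 0.25 to 0.27. The files give no means of separating a property of the libraries from one of translation here, and their parts were not tested. A second fit therefore carried smooth offsets for coding GC and length, and its values ("with offsets") are given for the lists, and for a single gene with a printed fold where they end or add a call, turn the sign or move the ratio by more than 1.5 times. With offsets the log2 ratios of the 12 highest genes above lay between 1.24 and 2.06, that of Ndufa4 being 2.06 and that of Mcts1 1.54. Those of the 12 lowest lay between -6.19 (BC005537) and -1.94 (Col27a1), with -2.91 for Wtip, -3.69 for Ppp1r16a and -2.45 for Hr. With offsets 3081 of 11228 genes (27.4%) were called higher and 3208 (28.6%) lower, 994 (8.85%) and 1651 (14.7%) of them beyond 2-fold. Of 4762 genes called beyond 2-fold at first, 3220 remained called in the same direction, 1424 lost the call and 118 were called in the opposite direction.

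**Figure D2:**
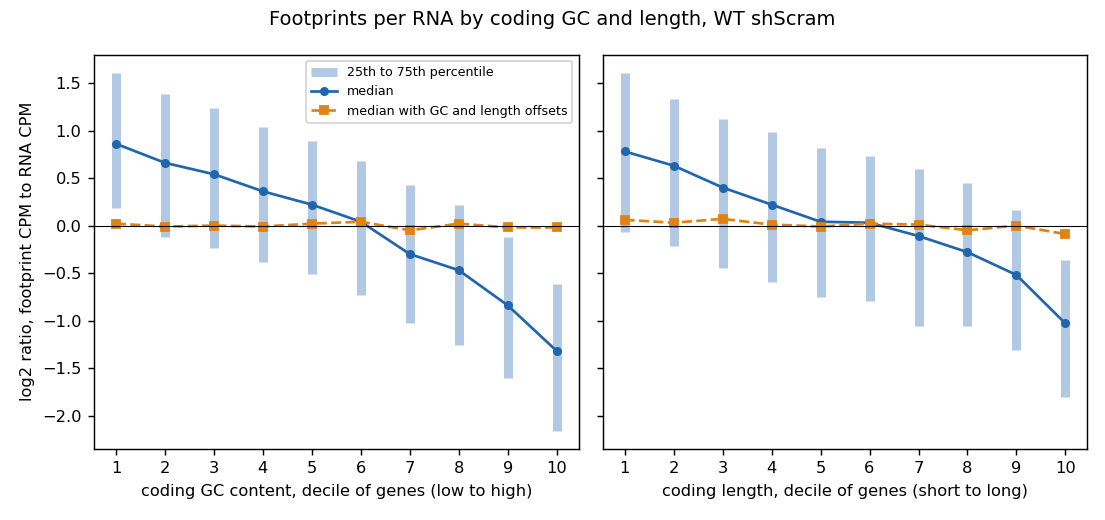
The log2 ratio of footprint to RNA CPM by decile of coding GC content (left) and coding length (right); bars span the 25th to 75th percentile, blue points are medians and orange squares are medians after offsets for both features. Blue medians go from 0.86 to -1.32 across GC deciles, and orange medians stay between -0.09 and 0.07 in both panels.

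Most mRNAs listed as controlled by upstream reading frames had few footprints for their RNA. Of the 20 stress-response mRNAs in this list 14 were called lower and 2 higher, with a median log2 ratio of -1.49 (-1.14 with offsets, 12 lower and 3 higher). Atf4, the transcription factor of the integrated stress response, had 16.5, 17.9 and 33.3 footprint CPM against 186, 187 and 184 RNA CPM (8.22-fold lower, log2 -3.04, SE 0.21, adjusted p = 8.98e-09; -3.58 with offsets). Its RNA was nearly equal in the 3 libraries, while footprint replicate 3 was above the others and still well below RNA. Slc35a4, whose leader codes for a microprotein, had 3.98, 3.39 and 4.84 against 65.8, 65.1 and 80.8 CPM (17.4-fold lower, adjusted p = 5.67e-11). As 62% of the coding 28-mers of Slc35a4 are shared with other genes, this ratio is uncertain. Atf5, a relative of Atf4, had 5.41, 5.65 and 5.6 footprint CPM, against RNA that ranged over 79.8, 132 and 48.2 (15.2-fold lower, adjusted p = 2.56e-05, log2 -2.64 with offsets). Both eIF2 phosphatase subunits were low. Ppp1r15a, the inducible one, had 1.58 ± 0.404 against 14.5 ± 3.57 CPM (SD, n = 3, 8.73-fold lower, adjusted p = 2.95e-07, log2 -2.45 with offsets). Ppp1r15b, the constitutive one, had 34.1, 22.4 and 28.3 against 110, 127 and 104 CPM (4.02-fold lower, adjusted p = 1.4e-08). Ddit3, which encodes CHOP, was scarce in both kinds (1.99 ± 0.76 against 8.52 ± 2.93 CPM, 4.11-fold lower, adjusted p = 0.000229). Ifrd1 (2.48-fold lower, adjusted p = 1.86e-05, log2 -2.18 with offsets) and the p53 ligase gene Mdm2 (2.83-fold lower, adjusted p = 2e-07, log2 -2.12 with offsets) followed. The list was not uniform, however, and control by an upstream frame was not tested for its members. Slc7a1, a cationic amino acid transporter, had 178, 233 and 207 footprint CPM against 97.1, 106 and 113 RNA CPM (1.95-fold higher, adjusted p = 1.14e-05). Eif1, the factor that enforces start codon choice, was 5.97-fold higher (adjusted p = 3.79e-09, log2 0.81 with offsets), with 99% of its coding 28-mers shared with other genes.

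Some of the upstream start codons in annotated leaders are shown as examples, with 12 bases before and after each and the ATG in capitals. Frame lengths in codons are in the text that follows (GENCODE vM21, mm10):

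Atf4 second upstream ATG (chr15:80255570-80255596, plus strand): cttgcggccaccATGgcgtattagagg

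Atf4, the third upstream ATG (chr15:80255669-80256216, plus strand, across an intron): ccggcctaagccATGgcgctcttcacg

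Atf5 first upstream ATG (chr7:44816523-44816549, minus strand): tccgcccgcgcaATGgctctgtagccg

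Atf5 second upstream ATG (chr7:44815273-44816418, minus strand, across an intron): cttttcgccgccATGgagtcctccacc

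Ddit3 first upstream ATG (chr10:127290817-127290843, plus strand): gtcgattatatcATGttgaagatgagc

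Ifrd1 upstream ATG (chr12:40223144-40223170, minus strand): ctagagagaaacATGtatcgtttccgc

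Hr second upstream ATG (chr14:70554844-70554870, plus strand): tctcggcgtcccATGgcgcaacccaca

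Atf4 and Atf5 share an arrangement in which a frame of 3 codons precedes a longer one, of 59 codons in Atf4 and 58 in Atf5, that runs past the start of the main coding sequence. The first upstream ATG of Atf4, not shown, opens a frame of 36 codons that ends inside the leader. The Ddit3 frame has 34 codons and that of Ifrd1 52, and both end inside the leader. The Hr leader holds 4 upstream ATGs, of which the one shown opens a frame of 34 codons; an upstream frame of the human hairless gene is known from inherited hair loss. Hr was chosen for this display after its values were seen.

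Upstream ATGs went with lower ratios across the transcriptome as well. The letters ATG, searched on the sense strand of the annotated leader, occurred for 5450 of 11228 genes (48.5%). A gene without an annotated leader was counted as having 0 upstream ATGs. Genes with 0, 1, 2 and 3 upstream ATGs had median log2 ratios of 0.26, -0.10, -0.46 and -0.58, and the 1073 genes with 4 or more had -0.71. With offsets the medians were 0.21, -0.07, -0.28, -0.43 and -0.58. More than 2-fold fewer footprints were called for 14.7% of the genes without an upstream ATG and for 41.4% of those with 4 or more, against 22.8% of all genes. Within leaders of 100 to 300 bases, where length varies less, the medians with offsets ran from 0.26 for 0 to -0.55 for 4 or more. Leader length itself correlated with the ratio at rho = -0.14. A purine at -3 and a G at +4 around the main start codon, the core of the Kozak context, had a weak relation to the ratio (rho = 0.06), with medians of -0.31, -0.02 and 0.08 for 0, 1 and both of these bases.

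**Figure D3:**
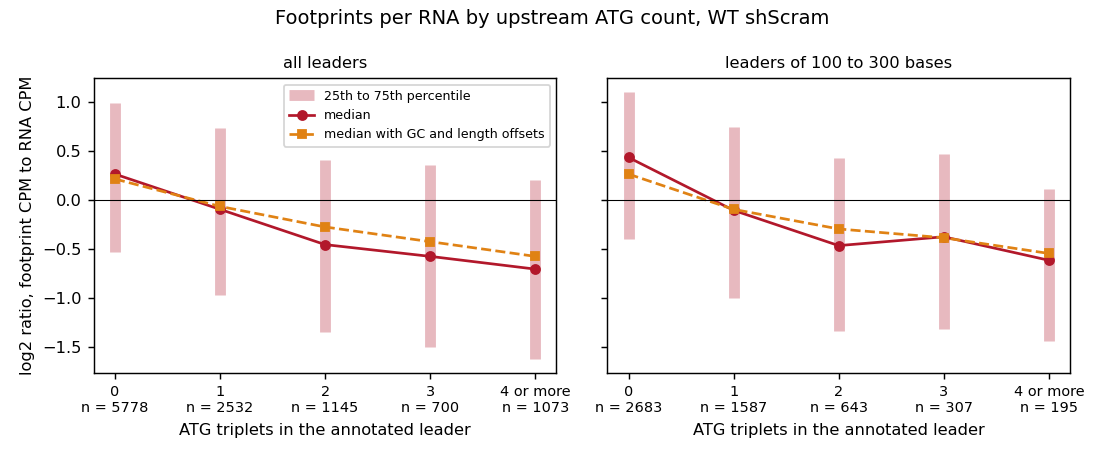
The log2 ratio of footprint to RNA CPM by the number of ATG triplets in the annotated leader, for all leaders (left) and leaders of 100 to 300 bases (right); bars span the 25th to 75th percentile, red points are medians and orange squares medians with GC and length offsets. Medians in the left panel go from 0.26 with 0 upstream ATGs to -0.71 with 4 or more, and genes without an annotated leader are counted with 0.

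Among iron handling mRNAs both ferritins were low and the transferrin receptor was high. In the leader, the iron-responsive hairpin lets iron regulatory proteins block initiation, and in the 3′ untranslated region it stabilises the mRNA. The ferritin light chain gene Ftl1 had 164, 128 and 162 footprint CPM against 632, 507 and 522 RNA CPM (3.66-fold lower, adjusted p = 1.23e-08), though 96% of its coding 28-mers are shared with other genes. For the heavy chain gene Fth1, with 26.2% shared, the values were 287, 208 and 358 against 518, 453 and 572 CPM (1.81-fold lower, adjusted p = 0.000431; log2 -0.85, and -2.01 with offsets). Neither ferritin had overlapping libraries. Tfrc, the transferrin receptor, has its elements in the 3′ untranslated region and lay on the other side, with 145, 161 and 129 against 28, 34.1 and 38.1 CPM (4.29-fold higher, adjusted p = 3.77e-09, log2 1.48 with offsets). Over the 8 genes of this list 2 were called higher and 3 lower, with a median of -0.15 (0.08 with offsets). The elements of the ferritins are printed with the 6-base loop in capitals:

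Fth1 (chr19:9982729-9982758, plus strand): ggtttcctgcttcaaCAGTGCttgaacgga

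Ftl1 (chr7:45459781-45459810, minus strand): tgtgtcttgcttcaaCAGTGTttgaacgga

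They were found by the letters CNNNNNCAGTG followed by any base but G, on the sense strand. The same letters occur in 609 of 11014 leaders (5.53%), whose median log2 ratio was -0.11, so a match alone marks no element.

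Ribosomal protein genes had fewer footprints than their RNA predicted. Of 76 tested cytosolic ribosomal protein genes 49 were called lower and 8 higher, with a median log2 ratio of -0.62. With offsets 73 were lower and 0 higher, and the median was -1.55. A median of 97.9% of the coding 28-mers of these genes recurs in transcripts of other genes or pseudogenes, and every value of this list is uncertain for that reason. Rplp0, a stalk protein, had 819, 1096 and 1218 footprint CPM against 5899, 4548 and 4857 RNA CPM (4.88-fold lower, adjusted p = 1.21e-08). Rps2 and Rpl13 were 4.48-fold and 4.24-fold lower. Rpl39, one of the shortest coding sequences at 153 bases, was 3.12-fold higher (adjusted p = 1.04e-07) but reversed to a log2 of -0.34 with offsets, and Rpl30 went from 1.24 to -0.53. Summed over the list, ribosomal proteins took 64991 to 73004 CPM of the footprints and 101545 to 122530 CPM of the RNA.

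Other mRNAs that carry a TOP motif were mixed. Of 18 such genes 10 were lower and 6 higher, with a median of -0.40 (-0.75 with offsets). A median of 52.1% of their coding 28-mers is shared with other genes. Only 3 had at most 10% shared, of which 2 were lower and 1 higher (median -0.38, with offsets -0.06). Eef2, the elongation factor for translocation, had 1286, 1966 and 1846 footprint CPM against 6321, 5061 and 4964 RNA CPM (3.21-fold lower, adjusted p = 5.52e-07; log2 -0.72 with offsets). Pabpc1, the poly(A)-binding protein, had 423, 445 and 546 against 1975, 1777 and 1618 CPM (3.8-fold lower, adjusted p = 1.54e-08, 53.3% of coding 28-mers shared). The gaps of both genes were wider than the spread within either kind. Tpt1, the tumour protein TCTP, was 2.43-fold lower (adjusted p = 7.71e-06, log2 -2.79 with offsets) and Eef1a1, which brings tRNA to the ribosome, 1.74-fold lower (adjusted p = 0.000944), with 100% and 89.4% of coding 28-mers shared. Npm1, a nucleolar chaperone, went the opposite way, with 1900, 1666 and 1851 against 437, 431 and 416 CPM (4.22-fold higher, adjusted p = 2.75e-09, log2 0.65 with offsets), 87.9% of its 28-mers being shared. Initiation factors leaned higher as a list, with 19 of 35 higher, 6 lower and a median of 0.41 (0.13 with offsets). Among the 20 with at most 10% of coding 28-mers shared, 9 were higher and 5 lower. Their median was 0.01 (0.07 with offsets). The eIF4G scaffolds stood apart from the direction of the whole list. Eif4g2, which works in cap-independent initiation, had 639, 611 and 575 against 1519, 1420 and 1502 CPM (2.43-fold lower, adjusted p = 5.95e-07; log2 -1.58 with offsets), and Eif4g3 was 2.85-fold and Eif4g1 1.65-fold lower (with offsets -0.54, and 0.27 with the opposite sign for Eif4g1). Of 22 tRNA synthetase genes 10 were higher and 2 lower (median 0.19, with offsets 0.35). Aimp2, a scaffold of the synthetase complex, was 3.36-fold higher (adjusted p = 3.29e-08), with 40.2% of its coding sequence under exons of Eif2ak1. Dars, for aspartate, was 2.76-fold higher (adjusted p = 1.11e-07, log2 0.57 with offsets). Vars, for valine, was 2.08-fold lower (adjusted p = 7.37e-06) but higher with offsets (log2 0.67).

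**Figure D4:**
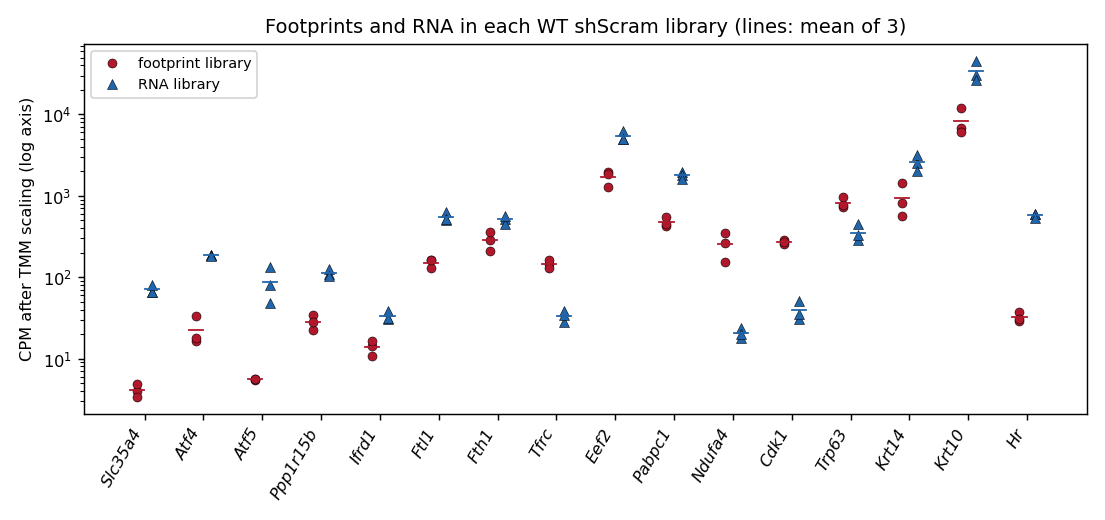
CPM after scaling, on a log axis, in each of the 3 footprint libraries (red circles) and the 3 RNA libraries (blue triangles) for 16 genes, with short lines at the means. The kinds do not overlap for any gene shown; Atf4, for example, lies at 16.5 to 33.3 in footprints and 184 to 187 in RNA, and Tfrc at 129 to 161 and 28 to 38.1.

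Genes of mitochondrial energy production had many footprints for their RNA. Of 77 nuclear genes for subunits of oxidative phosphorylation (OXPHOS) 67 were called higher and 3 lower, with a median log2 ratio of 1.31 (0.65 with offsets, 52 higher). Atp5j, a coupling subunit of ATP synthase, had 445, 309 and 301 footprint CPM against 37.9, 34.9 and 59.4 RNA CPM (7.80-fold higher, adjusted p = 2.22e-08, log2 1.07 with offsets). Uqcrb, already named, had 386, 225 and 241 against 25.9, 34.5 and 33.3 CPM. One of the 3 lower genes was Cox6a1, a subunit of cytochrome c oxidase, at 190 ± 35.9 against 311 ± 16.8 CPM (1.64-fold lower, adjusted p = 0.000474). Its coding sequence is 64.9% G and C, and with offsets the log2 ratio was -0.01. The median for 78 mitochondrial ribosomal protein genes was 0.92, with 58 higher and 3 lower (0.29 with offsets, 31 higher and 6 lower). Mrpl50 of the large subunit had 86.2, 67.2 and 71.8 against 11.5, 11.5 and 10.5 CPM (6.75-fold higher, adjusted p = 7.6e-10, log2 1.18 with offsets), and Mrps26 of the small subunit was 3.18-fold lower (adjusted p = 0.000594, log2 -0.79 with offsets).

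The proteasome, which degrades ubiquitinated proteins, was high in the same measure. Of 35 tested subunits 31 were higher and 0 lower, with a median of 1.38 (0.63 with offsets, 27 higher and 0 lower). Psmd14, the deubiquitinase of the lid, had 251, 189 and 238 against 32.1, 31.0 and 46.5 CPM (6.06-fold higher, adjusted p = 1.13e-09, log2 1.27 with offsets). Psmd10, an assembly chaperone, was 5.35-fold higher (adjusted p = 1.43e-08, log2 1.15 with offsets). Among cytosolic chaperones 15 of 21 were higher and 2 lower (median 0.78, with offsets 0.55), and the 2 lower genes were the stress-inducible HSP70 genes. Hspa1b had 10.5, 25.1 and 25.5 against 121, 146 and 109 CPM (6.05-fold lower, adjusted p = 1.81e-06, log2 -0.68 with offsets) and Hspa1a was 5.84-fold lower (adjusted p = 3.14e-07, log2 -0.70 with offsets). The pair is near-identical, with 89.4% and 91.9% of 28-mers shared, so reads cannot be assigned to one of them with certainty. Hsp90aa1, the inducible cytosolic HSP90, was 3.78-fold higher (adjusted p = 1.56e-08, 92.8% shared). In the list of endoplasmic reticulum chaperones 14 of 20 genes were higher and 1 lower (median 0.83, with offsets 0.50). The lower gene codes for a transcription factor and not for a chaperone. Hsp90b1 (GRP94) had 1690, 1586 and 1654 against 341, 390 and 416 CPM (4.30-fold higher, adjusted p = 2.82e-09), and Pdia3, a disulfide isomerase, 1646, 1466 and 1358 against 405, 411 and 429 (3.59-fold, adjusted p = 1.14e-08, log2 1.07 with offsets). Footprint and RNA libraries of both genes were far apart, with little spread within a kind.

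Other metabolic lists were divided. In glycolysis 8 of 15 genes were higher and 3 lower (median 0.49, with offsets 0.41). The direction differed among the 6 tested members with at most 10% of coding 28-mers shared. Of these 1 was higher and 3 lower, with a median of -0.33 (0.23 with offsets). Gapdh (1.99-fold, adjusted p = 2.02e-05) and Pgk1 (2.29-fold, adjusted p = 2.4e-06, log2 0.58 with offsets) were higher, each with 100% of 28-mers shared, and Hk2, a hexokinase, was 1.97-fold lower (adjusted p = 4.63e-05; log2 -0.10 with offsets). In cholesterol synthesis 12 of 23 genes were higher and 6 lower (median 0.39, with offsets 0.32). Msmo1, a sterol oxidase, had 247, 196 and 179 against 48.6, 40.9 and 56.5 CPM (4.22-fold higher, adjusted p = 5.97e-09, log2 0.70 with offsets). Mvk, mevalonate kinase, had 31.3, 42.1 and 37.9 against 150, 143 and 158 CPM (4.04-fold lower, adjusted p = 3.1e-09; log2 -1.28 with offsets). Srebf2, the transcription factor of the pathway, was 2.85-fold lower (adjusted p = 3.65e-08; -0.07 with offsets). For the polyamine pathway 6 of 13 genes were lower and 1 higher (median -0.19, with offsets -0.95). Polyamines feed back on the translation of several of these mRNAs. Odc1, the rate-limiting decarboxylase, was 1.97-fold lower (93.6 ± 23.8 against 184 ± 49.9 CPM, adjusted p = 0.00118, 84.4% shared, log2 -1.63 with offsets). Oaz1, the antizyme that needs a frameshift, was 2.90-fold lower (adjusted p = 6.6e-08, 91.6% shared) and Smox, spermine oxidase, 4.34-fold lower (45.6 ± 2.39 against 198 ± 9.92 CPM, adjusted p = 6.83e-10, log2 -1.21 with offsets). Azin1, the antizyme inhibitor, was not called (48.7, 42.7 and 48.1 against 51.4, 45.3 and 56.3 CPM, adjusted p = 0.422), and with offsets its log2 ratio was -1.32. Selenoprotein genes, which recode a stop codon, had 4 of 15 higher and 5 lower (median -0.01, with offsets -0.13, and 0.12 to 0.22 without footprint replicate 3 or RNA replicate 1 or 2). Selk was 8.33-fold higher (adjusted p = 2.98e-10, 82.8% shared, log2 1.66 with offsets), and Sephs2, which makes selenophosphate, 4.36-fold lower (adjusted p = 1.3e-09), 48.4% of its coding sequence lying under exons of another gene.

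Genes of the cell cycle had many footprints for their RNA. Of 26 S phase genes 22 were higher and 0 lower, with a median of 1.02 that offsets barely moved (0.95, 20 higher and 0 lower). Ccne2, a cyclin gene, had 53.5, 47.7 and 44.3 against 8.23, 5.56 and 9.38 CPM (6.04-fold higher, adjusted p = 6.84e-09, log2 1.33 with offsets). Pcna, the replication clamp, was 6.14-fold higher (adjusted p = 3.31e-08, 77.5% shared, log2 1.40 with offsets). In G2 and M phase 22 of 26 genes were higher and 2 lower (median 0.94, with offsets 0.84). Cdk1, the mitotic kinase, had 287, 253 and 267 against 30.9, 35.3 and 50.6 CPM (6.76-fold higher, adjusted p = 4.63e-10, log2 1.76 with offsets), and Mad2l1 of the spindle checkpoint was 7.46-fold higher (adjusted p = 8.48e-10, log2 1.35 with offsets). The large kinesin gene Cenpe went against the list at 1.83-fold lower (adjusted p = 0.000218). The regulators of entry into the cycle did not share this direction. Of 20 cyclins outside these phases and cell cycle inhibitors 5 were higher and 9 lower (median -0.20, with offsets -0.46). Trp53, the p53 gene, had 331, 318 and 310 against 125, 125 and 150 CPM (2.38-fold higher, adjusted p = 3.75e-07), and Ccnd1 was 1.76-fold higher (adjusted p = 7.37e-05). E2f1, which drives S phase genes, had 7.4, 5.43 and 10.7 against 49.0, 57.2 and 49.7 CPM (6.63-fold lower, adjusted p = 6.94e-09; log2 -1.81 with offsets). Ccni, an atypical cyclin, was 6.39-fold lower (adjusted p = 2.15e-09, 68.3% shared, log2 -3.62 with offsets) and Cdkn2c, the INK4 inhibitor p18, 3.15-fold lower (adjusted p = 8.32e-05, log2 -2.67 with offsets).

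Of 15 basal keratinocyte genes 7 were higher and 5 lower, with a median of 0.24, which was 1.13 with offsets (12 higher and 1 lower). Trp63, the master regulator of the basal layer, had 719, 780 and 964 against 287, 326 and 446 CPM (2.32-fold higher, adjusted p = 9.71e-06). Cd44, the hyaluronan receptor, was 2.98-fold higher (adjusted p = 5.17e-08) and the integrin gene Itgb1 2.88-fold (adjusted p = 3.78e-07). The basal keratins had fewer footprints than RNA or no call. Krt14 had 566, 805 and 1417 against 2533, 2041 and 3183 CPM (2.78-fold lower, log2 -1.48, SE 0.32, adjusted p = 0.00258), and with offsets the call was lost (log2 -0.80, adjusted p = 0.0766). Its footprints varied between libraries more than those of its partner Krt5, which was not called (6500 ± 1130 against 7480 ± 1137 CPM, adjusted p = 0.352; with offsets log2 0.50, adjusted p = 0.0331). Krt15 was 1.89-fold lower (adjusted p = 0.000333). For hemidesmosome and basement membrane genes the raw and adjusted pictures were opposite. At first 6 of 20 were higher and 10 lower with a median of -0.29, and with offsets 17 were higher and 1 lower with a median of 1.36. Their coding sequences are long, with a median of 5239.5 bases. Lamb3, a chain of laminin 332, was 1.80-fold higher (adjusted p = 0.000147; log2 2.12 with offsets). Itgb4, the integrin of the hemidesmosome, was 1.48-fold lower (adjusted p = 0.00421) and Col17a1, its collagen partner, 1.68-fold lower (adjusted p = 0.000459), and with offsets they reversed to 1.34 and 1.08. Plec, the plectin linker, had 179, 237 and 210 against 2212, 2421 and 2193 CPM (10.9-fold lower, adjusted p = 4.71e-11; -0.63 with offsets).

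Spinous genes had 3 of 15 higher and 7 lower (median -0.44, with offsets -0.20). Krt10 had 6719, 11874 and 6148 against 30654, 45675 and 26529 CPM (4.16-fold lower, adjusted p = 8.57e-06; -1.37 with offsets), and its partner Krt1 was 2.26-fold lower (adjusted p = 0.000452; -0.78 with offsets). Replicate 2 of both kinds held the most Krt1 and Krt10. Krtdap, a small secreted protein of the same layer, had 2087, 2014 and 1624 against 153, 250 and 251 CPM (8.73-fold higher, adjusted p = 7.29e-10, log2 1.60 with offsets). Dsp, desmoplakin, had 1809, 2479 and 1997 against 10684, 13087 and 9838 CPM (5.35-fold lower, adjusted p = 8.24e-09; -1.13 with offsets). In the desmosome list 4 of 12 genes were higher and 3 lower (median -0.02, with offsets 0.50, and 0.07 to 0.17 without footprint replicate 1 or RNA replicate 2 or 3), and the desmosomal cadherins were on the higher side. Dsc3 had 2317, 2142 and 1990 against 741, 799 and 932 CPM (2.61-fold higher, adjusted p = 6.03e-07), and Dsg3 was 2.62-fold higher (adjusted p = 2.11e-07). Pkp3, a plakophilin, was 2.66-fold lower (adjusted p = 2.72e-07; 0.00 with offsets). Of 15 granular and cornified genes 1 was higher and 2 lower (median -0.24, with offsets 0.13, and 0.06 without RNA replicate 2). Tgm1, the crosslinking enzyme of the cornified envelope, was 2.48-fold lower (59.1 ± 24.3 against 148 ± 31.9 CPM, adjusted p = 0.00223), with offsets uncalled at -0.54. Actin and adhesion genes had 12 of 22 higher and 5 lower (median 0.64, with offsets 0.62). Of the 13 with at most 10% of coding 28-mers shared, 5 were higher and 5 lower (median 0.11, with offsets 0.90). Cfl1, cofilin, was 3.35-fold higher (adjusted p = 2.56e-08, 71.6% shared, log2 0.76 with offsets), and Myh9, nonmuscle myosin, 2.14-fold lower (adjusted p = 3.57e-05) but higher with offsets (0.62).

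Of 29 receptor genes of the EGFR, Notch, Wnt, Hedgehog and related families 22 were lower and 2 higher, with a median of -1.08 (-0.19 with offsets, 11 lower and 7 higher). Smo, the transducer of Hedgehog signalling, had 33.0, 23.3 and 30.0 against 386, 322 and 376 CPM (12.6-fold lower, adjusted p = 2.5e-11; -2.30 with offsets). Notch3 was 7.39-fold lower (adjusted p = 4.83e-10; -0.47 with offsets) and the Hedgehog receptor gene Ptch1 4.48-fold lower (adjusted p = 1.77e-09; -1.09 with offsets). Egfr was one of the 2 exceptions, with 320, 354 and 303 against 177, 170 and 173 CPM (1.88-fold higher, adjusted p = 1.18e-05). Hair follicle genes had 11 of 20 lower and 3 higher (median -0.57, with offsets -0.29). Gli1, the Hedgehog effector, was 4.81-fold lower (41.5 ± 1.30 against 200 ± 13.8 CPM, adjusted p = 3.72e-10, log2 -0.77 with offsets), and Foxi3, a placode transcription factor, 1.73-fold higher (adjusted p = 0.000181, log2 1.95 with offsets).

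Among 31 epidermal transcription factors 15 were lower and 5 higher (median -0.47, with offsets 0.03). Klf4, which drives the skin barrier, had 81.7, 114 and 57.5 against 481, 585 and 367 CPM (5.63-fold lower, adjusted p = 1.78e-06; -1.11 with offsets). Cebpa was 4.73-fold lower (adjusted p = 4.81e-08) and Cebpb 4.47-fold lower (adjusted p = 8.81e-09), and with offsets they were uncalled at -0.02 and 0.08, their coding sequences being 71.9% and 73.4% G and C. Of 21 immediate early genes, which dissociation of tissue can induce, 14 were lower and 0 higher (median -0.80, with offsets 0.03, 6 lower and 3 higher). Jund had 60.3, 64.2 and 60.3 against 500, 426 and 365 CPM (6.97-fold lower, adjusted p = 1.39e-10; -0.73 with offsets), and 85.7% of its coding sequence lies under exons of another gene model. Fos was 3.03-fold lower (28.6 ± 2.62 against 87.6 ± 17.6 CPM, adjusted p = 3.22e-07; -1.13 with offsets). RNA-binding proteins of splicing had the opposite direction. Of 28 SR protein and hnRNP genes 22 were higher and 2 lower (median 1.08, with offsets 0.62). In the 16 with at most 10% of coding 28-mers shared, 10 were higher and 2 lower (median 0.61, with offsets 0.71). Hnrnph1 had 642, 553 and 702 against 197, 205 and 155 CPM (3.42-fold higher, adjusted p = 2.78e-08, log2 0.95 with offsets), while Clk4, a kinase that phosphorylates SR proteins, was 2.23-fold lower (adjusted p = 2.69e-05; -2.11 with offsets). All 28 tested giant proteins were lower (median -2.04), of which 17 were still lower and 4 were higher with offsets (median -0.60). Kmt2d, a histone methyltransferase, had 52.6, 71.7 and 67.2 against 767, 860 and 676 CPM (12-fold lower, adjusted p = 3.4e-11, log2 -1.09 with offsets). Replication-dependent histone genes had 15 of 55 higher and 22 lower (median -0.12, with offsets 0.33), a median of 84.7% of their 28-mers being shared, and none is named.

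**Figure D5:**
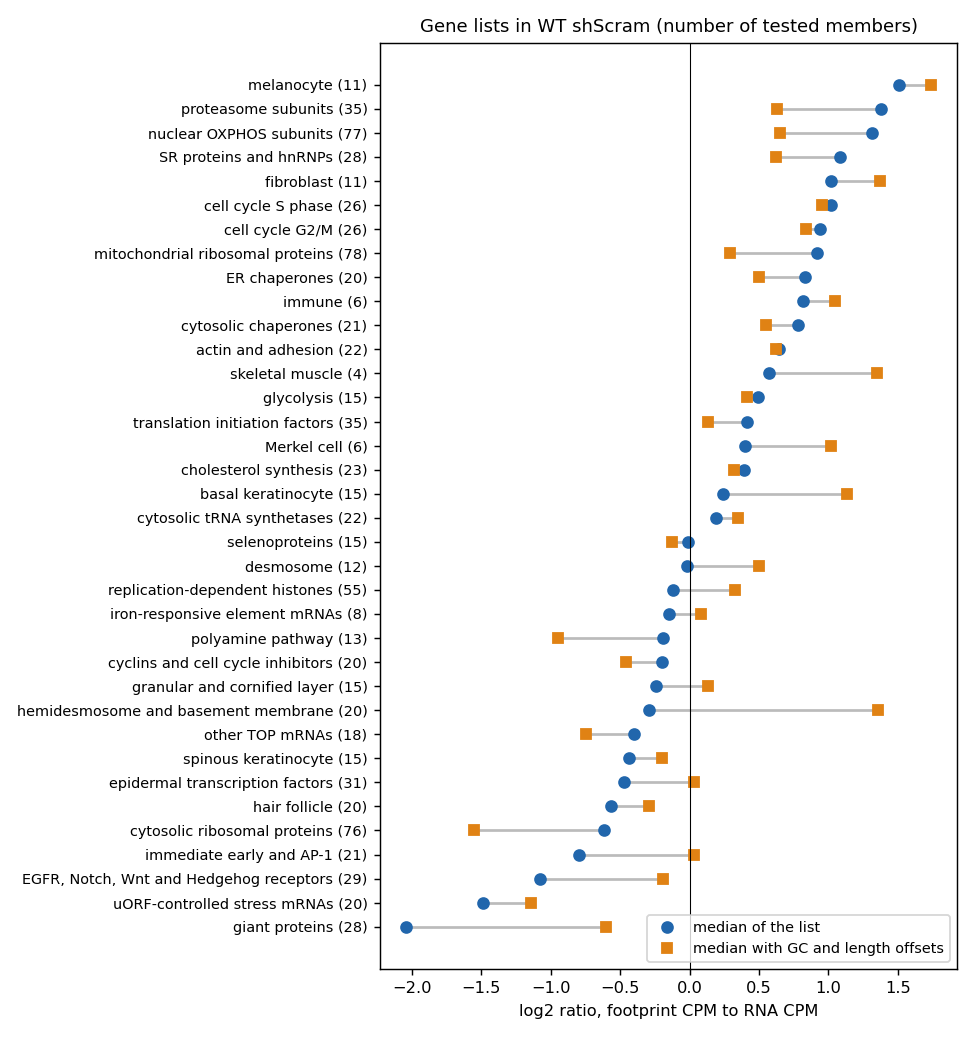
The median log2 ratio of footprint to RNA CPM of each gene list with at least 4 tested members (number in brackets), before (blue circles) and after (orange squares) offsets for coding GC and length. Proteasome and OXPHOS lists stand at 1.38 and 1.31, the upstream-frame list at -1.49 and giant proteins at -2.04; the hemidesmosome list moves from -0.29 to 1.36 and ribosomal proteins from -0.62 to -1.55.

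Melanocyte genes stood out among the markers of cells other than keratinocytes. All 11 melanocyte genes were higher (median 1.51, with offsets 1.74), and their summed level was 1438 to 1702 CPM in footprints and 434 to 653 in RNA. Tyr, the tyrosinase of melanin synthesis, had 115, 93.4 and 93.4 against 15.6, 15.1 and 15.5 CPM (6.51-fold higher, adjusted p = 4.35e-10, log2 2.03 with offsets), and Mlana was 7.15-fold higher (adjusted p = 1.2e-08, log2 1.74 with offsets). Of 11 fibroblast genes 4 were higher and 1 lower (median 1.02, with offsets 1.37, and -0.06 without footprint replicate 1), with sums of 2818 to 4447 CPM in footprints and 1198 to 2891 in RNA. Dcn, the proteoglycan decorin, had 1453, 1170 and 1092 against 151, 178 and 203 CPM (6.96-fold higher, adjusted p = 4.35e-10, log2 1.88 with offsets), and Postn, periostin, was 2.85-fold higher (adjusted p = 1.49e-07). The immune list had 3 of 6 higher and 0 lower (median 0.82, with offsets 1.05). Its largest member, Epcam (527 ± 68.0 against 144 ± 15.8 CPM), is also made by epithelial cells. Of 6 Merkel cell genes 3 were higher and 1 lower (median 0.40, with offsets 1.02, and -0.17 and -0.12 without footprint replicate 2 or 3), with Krt8 1.94-fold higher (adjusted p = 0.00106). Among the 4 skeletal muscle genes tested 1 was higher and 0 lower (median 0.57, with offsets 1.35), at sums of 10.4 to 32.8 CPM in footprints. The labels do not say that footprints and RNA of a replicate came from the same cells, and whether a different share of these cells entered the 2 kinds of library was not tested.

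The ratios recurred in the libraries of the other conditions, which share none with WT shScram. Across genes the log2 ratios correlated at rho = 0.93 with HrasG12V shScram (11136 genes) and 0.96 with HrasG12V shEif2b5 (11069 genes). Of the WT genes called beyond 2-fold that were measured there, 4672 of 4705 had the same sign in HrasG12V shScram and 4693 of 4701 in HrasG12V shEif2b5. The difference between conditions was tested by the interaction of condition and library kind over all 18 libraries. For HrasG12V shScram 120 of 11990 genes (1%) were called at an adjusted p under 0.05, 105 with a lower ratio than in WT shScram (0.876%) and 15 with a higher one (0.125%). For HrasG12V shEif2b5 edgeR called 0, and 666 genes (5.55%) had an unadjusted p under 0.05, against 1762 (14.7%) for HrasG12V shScram. Median log2 ratios of the OXPHOS list were 1.31 in WT shScram, 1.13 in HrasG12V shScram and 1.45 in HrasG12V shEif2b5, with 7 members called as different in HrasG12V shScram and 0 in HrasG12V shEif2b5. The upstream-frame list stood at -1.49, -1.37 and -1.34 in the same order, with 1 member and 0 members called.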

How the data were processed

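The deposited table gives, for each gene symbol, raw counts of reads within the coding sequence. It was made by the authors with Bowtie, TopHat2 and HTSeq on mm10, per the submitters' processing notes. Versions, strand setting, read lengths and the handling of reads that map to several places are not given in the sources used here. All per-sample columns of the table belong to the series. Symbols were matched to GENCODE vM21, a mm10 annotation, for 99.3% of 20655 rows, and 27 date-like names were kept as written. Coding and leader features are those of 1 protein-coding transcript per gene, the APPRIS principal one where marked.

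The 6 WT shScram libraries were fitted with edgeR 4.0.16 in R 4.3.3 (filterByExpr with a minimum count of 10 and total of 15, TMM factors 0.933 to 1.06, robust quasi-likelihood test of library kind, Benjamini-Hochberg adjustment over all genes). Values are CPM after TMM scaling, as mean ± SD or per library, and SE is on the log2 scale. The biological coefficient of variation was 0.148. Libraries of a kind differed beyond sampling noise (chi-square 4.31 to 12.5 for each degree of freedom), so none is a copy. Since 3 against 3 libraries reach a two-sided exact permutation p of 0.1 at best, single genes were judged by the model across genes. Offsets for coding GC and length were smooth terms fitted per library with mgcv 1.9.3. The script was tested on simulated counts.

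The comparison, its gene lists and the rule for named genes were chosen with earlier results of these data known. The rule took the 12 highest and 12 lowest called ratios (at least 10 CPM in the higher kind, 1 in the lower, no overlap; Gm and Rik gene models, date-like names, pseudogenes and histones left out), the 10 genes with most footprints, up to 3 called members at each end of a list and a set of genes of known translational control; 133 of the 209 genes it takes are printed. Same-numbered footprint and RNA libraries deviated together (r = 0.14, 0.33 and 0.26 over 8783 genes), a pairing read from the data, and a replicate block was an alternative. The other alternatives were other scalings, filters and tools, offsets, all 18 libraries and leaving out each library.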

Additional observations from a re-analysis of the deposited data

Results flagged for a closer look

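Footprints per RNA of 7 named genes differed between conditions by the interaction test (HrasG12V shScram minus WT shScram, edgeR), and in all 7 the ratio was lower in HrasG12V shScram. On the log2 scale the difference was -1.59 for Ndufa4 (SE 0.29, adjusted p = 0.0116), -1.40 for Selk (adjusted p = 0.0189), -1.21 for Eif1 (adjusted p = 0.0215), -1.06 for Tyr (adjusted p = 0.0224), -1.89 for BC031181 (adjusted p = 0.0269), -1.08 for Atp5j (adjusted p = 0.0354) and -1.10 for Uqcrb (adjusted p = 0.0482). These genes are named for high ratios in WT shScram, a choice that favours a lower ratio elsewhere, so their shared direction is no evidence of its own. Of all 120 genes called by this test 105 had a lower and 15 a higher ratio in HrasG12V shScram. In this contrast strain and genotype cannot be told apart.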

How the results depend on the processing

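Leaving out each library in turn kept the count of genes higher in footprints between 3689 and 3855 and that of lower genes between 3694 and 4001, with 2201 to 2458 genes over 2-fold higher and 2509 to 2667 over 2-fold lower. Of the 209 genes that the naming rule takes, 202 were called and 17 of these lost the call when 1 library was left out, none of them among the 133 printed. The edgeR test against a 1.5-fold threshold called 2534 genes higher, and the cause is that stricter threshold. The replicate block gave 4071 higher and 4182 lower genes, 2252 and 2586 of them over 2-fold, and changed no call of a named gene. Library totals without composition scaling shifted the median gene by 0.11, and the share of higher calls from 49% to 53.2%. Ratios of genes near 1 CPM, such as Ppp1r15a and Ddit3 in footprints, rest on few reads.

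Offsets for coding GC and length left 994 genes over 2-fold higher and 1651 lower (1029 and 1659 with the replicate block added). They turned the sign for 9 named genes (value with the block second): Cebpb 0.08 and 0.08, Col17a1 1.08 and 1.08, Eif4g1 0.27 and 0.27, Itgb4 1.34 and 1.34, Krt5 0.50 and 0.50, Myh9 0.62 and 0.60, Rpl30 -0.53 and -0.53, Rpl39 -0.34 and -0.35, Vars 0.67 and 0.67. List medians that turned, given likewise, were desmosome 0.50 and 0.50, epidermal transcription factors 0.03 and 0.01, granular and cornified layer 0.13 and 0.05, hemidesmosome 1.36 and 1.37, immediate early 0.03 and 0.02, iron-responsive 0.08 and 0.07, and histones 0.33 and 0.31. What the offsets remove was not tested.

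Other list medians that changed sign lay in 5 lists. The desmosome median was 0.09 with library totals, 0.15 above 10 CPM, 0.22 without the 20 most abundant genes, and -0.10 to 0.17 when a library was left out. For selenoproteins it was 0.10 with library totals, 0.14 with limma voom and -0.07 to 0.22 with a library left out, and for Merkel cell genes -0.04 above 10 CPM and -0.17 to 0.52 with a library left out. With a library left out, the granular median ran from -0.83 to 0.06 and the fibroblast median from -0.06 to 1.07. The cause was not tested.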

Other observations

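Families read from gene symbols, a grouping made after the values were seen, showed where else ratios ran high or low; 66 stems had at least 15 tested genes. Ankyrin repeat genes (Ankrd) had 22 of 31 called lower and 3 higher, with a median log2 ratio of -1.33, and of -0.93 once coding GC and length entered as offsets. The 37 Zbtb zinc finger genes had 21 lower and 5 higher (medians -0.82 and -0.49), and the 293 Zfp genes 121 lower and 58 higher (-0.32 and -0.48). Keratin genes had 18 of 32 lower and 3 higher, with medians of -0.56 and -0.17.

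Serpinb genes, protease inhibitors of stratified epithelia, had 11 of 15 higher and 1 lower with a median of 0.96, which was -0.22 with offsets. The 37 Ube genes of ubiquitin conjugation had a median of 0.95 and, with offsets, -0.19. Collagen genes went the other way, from -0.48 to 1.22 (15 of 28 called higher with offsets, 3 without). Nucleoporin genes (Nup) were higher in both fits, with 12 of 20 and 16 of 20 called higher and medians of 0.57 and 0.87.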
